A study of Mus musculus with 9 samples.

Results

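Of the 38293 genes in the count table, 34 belong to the set described here: genes of amino acid synthesis and tRNA charging, grouped here under the transcription factor ATF4, which is known to regulate a number of them. They were taken by symbol from a fixed list, and each symbol was matched to its Ensembl gene through the GENCODE annotation of the mouse build GRCm38. The list holds 20 genes of cytosolic aminoacyl-tRNA synthetases and 14 others. Of the 14, 9 make serine, one-carbon units, asparagine or proline, 2 are the chains of an amino acid transporter, and 3 are stress regulators. All 34 passed the filter on low counts, which left 14124 genes to test, so no gene of the set is missing from the values below. Phgdh needed the libraries of 1 group to pass, as given with its values.

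Aminoacyl-tRNA synthetases join each amino acid to its tRNA and so supply the ribosome. When amino acids run short, when unfolded protein builds up in the endoplasmic reticulum or when mitochondria are disturbed, kinases phosphorylate the initiation factor eIF2. Most translation then slows, while that of Atf4 rises, and ATF4 binds C/EBP-ATF response elements in genes for synthetases, amino acid synthesis and amino acid uptake. In heart muscle this programme is known from ischemia and from mitochondrial disease, and it also serves dividing and matrix-making cells.

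RNA of the left ventricle was sequenced in 9 male C57BL/6 mice aged 8 weeks, with 3 mice in each of 3 groups. The first group (mice 4, 5 and 6) had ischemia-reperfusion (I/R): the left anterior descending artery was tied for 1 hour and then opened, and tissue of the infarct region was taken 1 day later. The second (libraries A, B and C) gave the infarct region 14 days after the same injury, and the third (mice 1, 2 and 3) was sham-operated. The labels give the same tissue for sham, and all 9 mice are of the same strain with no transgene named, the time at which sham tissue was taken is not given in the labels, and the 14-day count columns share 1 name, so A, B and C are names only. In such bulk tissue, fewer cells of a type and less RNA per cell cannot be told apart.

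Libraries held 20215781 to 36816818 counts, and 7217019 to 15969149 without ribosomal RNA genes. The labelled tissue was checked by its cardiomyocyte markers, which were abundant in every library, with a summed level of 9779 to 19270 counts per 1000000 (CPM) at 1 day, 20750 to 28320 CPM at 14 days and 29200 to 31670 CPM in sham. The 1-day libraries were unlike each other: on the first principal component mouse 6 lay at 37.2, mice 4 and 5 at 78.0 and 78.7, and the other 6 libraries between -40.9 and -16.9. Mouse 6 had the highest cardiomyocyte sum of the 3 (19270 CPM) and the lowest neutrophil sum (53.1 CPM, against up to 148 CPM in the others).

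At 1 day after I/R nearly the whole set was higher than in sham. The edgeR quasi-likelihood test, with p adjusted over all 14124 genes, called 18 of 20 synthetases and 11 of 14 other members higher and no member lower, where 29.4% of all genes were called higher and 24.8% lower. The median log2 fold was 0.79 for the synthetases and 1.97 for the other members, beside 0.04 over all genes tested. With total counts in place of TMM scaling the all-gene median was 0.53, and 6860 genes were called higher and 1057 lower, among them 20 synthetases and 12 other members higher. In 29 of 34 members the 3 mice at 1 day all lay above the 3 sham mice, and 33.5% of all genes had groups apart in that direction. The comparisons of 1 day and of 14 days share the sham mice, so each is given by its own values.

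**Figure D1:**
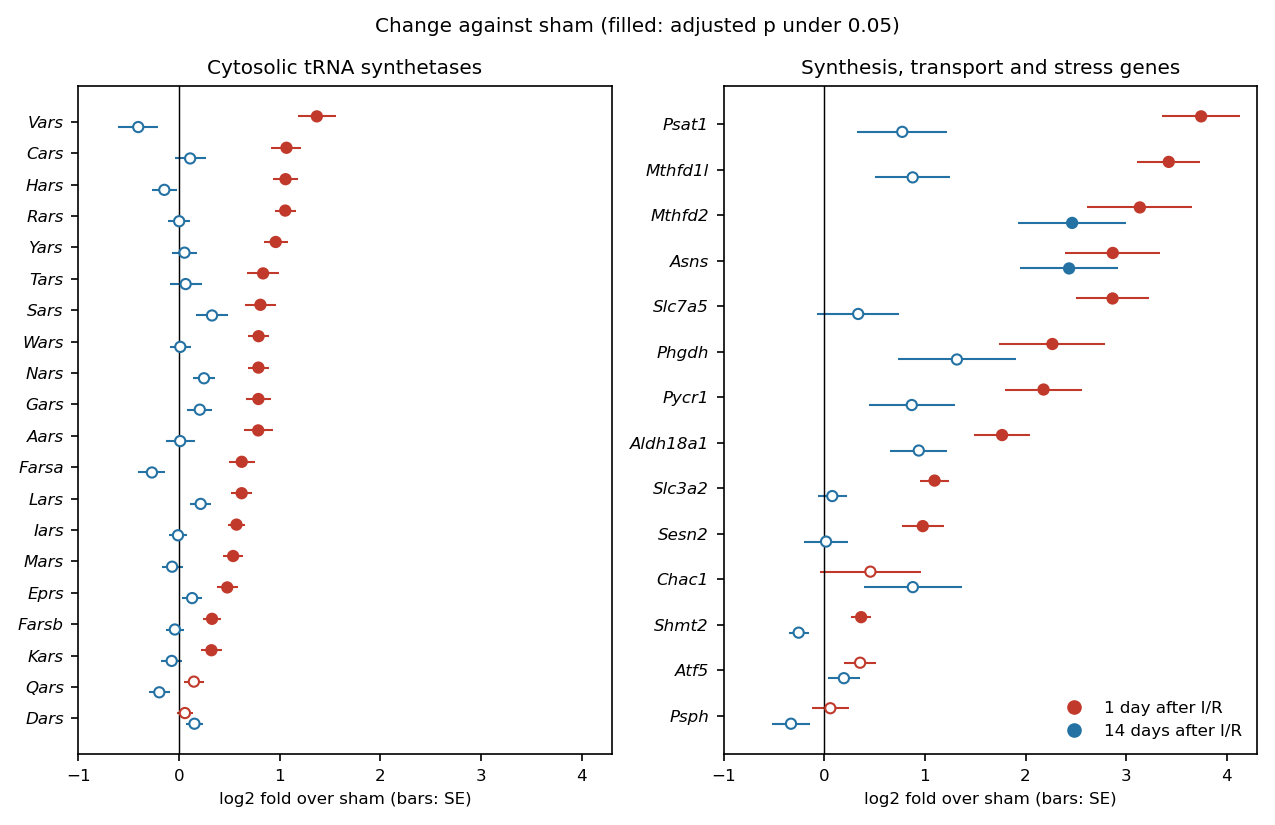
Log2 fold over sham (horizontal axis, with SE as bars) of the 20 synthetases (left) and the 14 other members (right) at 1 day and at 14 days after I/R, with filled points for an adjusted p under 0.05. At 1 day the synthetases spanned 0.06 to 1.37 and the other members 0.06 to 3.74, and at 14 days only Mthfd2 and Asns were called.

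Serine synthesis held the largest change of the set. Psat1, the phosphoserine aminotransferase of that pathway, had 17.99, 15.7 and 7.39 CPM in mice 4, 5 and 6 at 1 day, 1.14, 1.85 and 2.33 CPM in libraries A, B and C at 14 days, and 1.05, 1.21 and 0.703 CPM in sham mice 1, 2 and 3. Every mouse at 1 day was far above every sham mouse, with mouse 6 the lowest of the 3, and the log2 fold was 3.74 (SE 0.39, edgeR adjusted p = 7.91e-05). Phgdh, which takes the first step, averaged 0.629 ± 0.198 CPM at 1 day and 0.144 ± 0.107 CPM in sham (SD, n = 3 each), a log2 fold of 2.27 (SE 0.53, adjusted p = 0.00368). Phgdh is uncertain, because it had only 99 counts over the 9 libraries and shares at least 95% of its aligned bases with 8 processed pseudogenes. It had 61 counts at 1 day, 29 at 14 days and 9 in sham, and passed the filter on low counts only through the 1-day libraries. Its call, counted among the 11 other members higher at 1 day, is therefore no independent support. Psph, the phosphatase that finishes serine, was not called: it averaged 2.04 ± 0.217 CPM at 1 day and 1.96 ± 0.210 CPM in sham, and its log2 fold of 0.06 was within its SE of 0.18 (adjusted p = 0.797). About 10.4% of the exonic bases of Psph lie antisense to Cct6a, so reads of that gene may enter its count.

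The mitochondrial one-carbon enzymes rose at 1 day by unequal amounts. Mthfd1l, which releases formate from mitochondria, had 6.20, 4.85 and 3.32 CPM in mice 4, 5 and 6 at 1 day, 0.554, 1.09 and 0.818 CPM in libraries A, B and C at 14 days, and 0.461, 0.438 and 0.447 CPM in sham mice 1, 2 and 3. All 3 mice at 1 day stood above all other libraries, and the log2 fold was 3.42 (SE 0.31, adjusted p = 2.18e-05). Mthfd2, which oxidises methylene-tetrahydrofolate in mitochondria, had 8.55, 6.95 and 3.72 CPM in mice 4, 5 and 6 at 1 day, 1.63, 5.04 and 5.60 CPM in libraries A, B and C at 14 days, and 0.879, 0.674 and 0.639 CPM in sham mice 1, 2 and 3. The mice at 1 day and at 14 days were all above sham, with mouse 6 and library A the lowest of their groups, and the 1-day log2 fold was 3.14 (SE 0.52, adjusted p = 9.77e-04). Shmt2, which moves the one-carbon unit from serine to folate, rose less, with 15.3 ± 0.647 CPM at 1 day and 11.9 ± 0.816 CPM in sham and a log2 fold of 0.37 (SE 0.10, adjusted p = 0.00774).

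Asns, which makes asparagine from aspartate, had 6.36, 6.24 and 3.09 CPM in mice 4, 5 and 6 at 1 day, 1.73, 4.78 and 5.27 CPM in libraries A, B and C at 14 days, and 0.837, 0.674 and 0.639 CPM in sham mice 1, 2 and 3. No injured library overlapped sham, and mouse 6 and library A were again the lowest of their groups. The log2 fold at 1 day was 2.87 (SE 0.47, adjusted p = 8.01e-04). Both enzymes of proline synthesis in the set also rose. Aldh18a1, which turns glutamate into the precursor of proline and ornithine, had 19.2, 16.7 and 8.92 CPM in mice 4, 5 and 6 at 1 day, 6.48, 9.06 and 9.94 CPM in libraries A, B and C at 14 days, and 4.94, 4.48 and 3.71 CPM in sham mice 1, 2 and 3. The groups were apart at 1 day, with a log2 fold of 1.77 (SE 0.28, adjusted p = 5.66e-04). Pycr1, the mitochondrial enzyme that completes proline, averaged 1.68 ± 0.405 CPM at 1 day and 0.341 ± 0.179 CPM in sham, a log2 fold of 2.18 (SE 0.38, adjusted p = 7.50e-04).

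**Figure D2:**
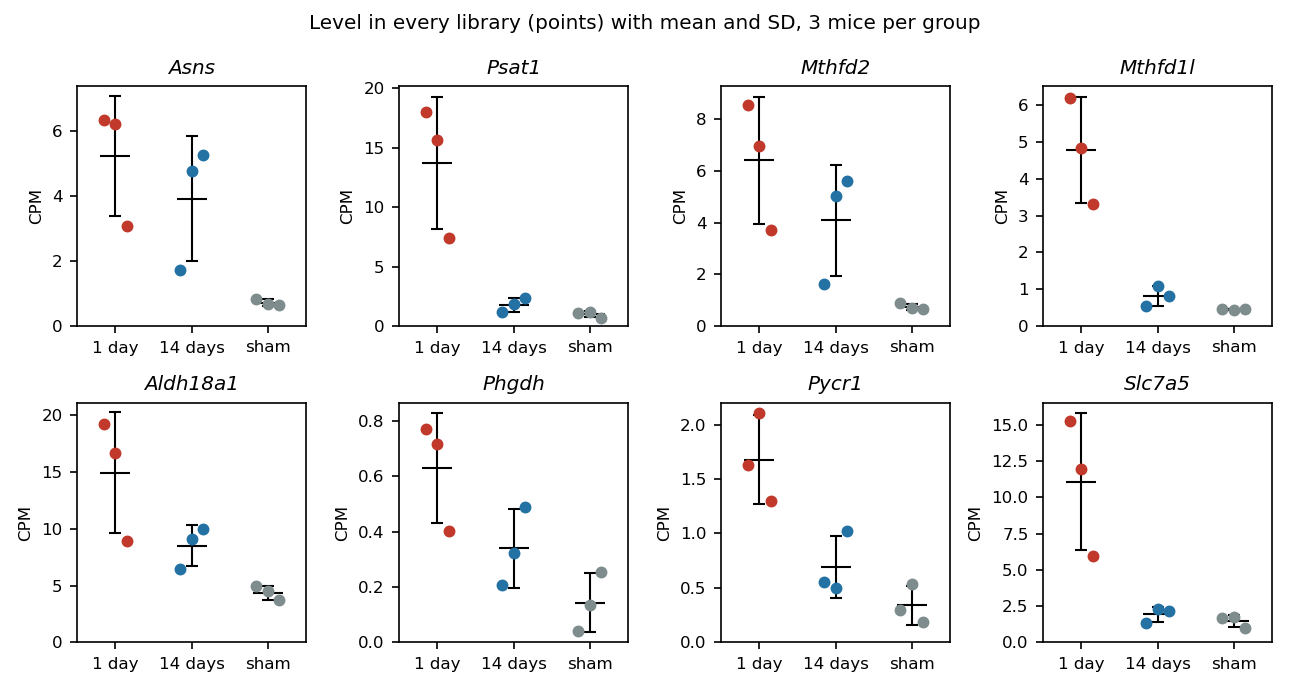
CPM in every library (points, vertical axis from 0) of 7 amino acid synthesis genes and the transporter chain Slc7a5, with the mean (horizontal tick) and SD (bars) of 3 mice at 1 day, 3 at 14 days and 3 sham mice. Psat1 reached 7.39 to 17.99 CPM at 1 day and at most 2.33 CPM in the other groups, while Asns and Mthfd2 held 4.78 to 5.60 CPM in 2 of the 3 libraries at 14 days.

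Slc7a5 and Slc3a2 code for the light and the heavy chain of the large neutral amino acid transporter, which carries leucine and its relatives into cells. Slc7a5 had 15.3, 12.0 and 5.96 CPM in mice 4, 5 and 6 at 1 day, 1.35, 2.29 and 2.17 CPM in libraries A, B and C at 14 days, and 1.68, 1.75 and 1.02 CPM in sham mice 1, 2 and 3. The 1-day mice stood apart from both other groups, and the log2 fold was 2.86 (SE 0.36, adjusted p = 1.96e-04). Slc3a2 was also higher, at 20.8 ± 3.13 CPM at 1 day and 9.72 ± 1.36 CPM in sham, with a log2 fold of 1.10 (SE 0.14, adjusted p = 1.36e-04). Taken within each library and per exonic length, the log2 ratio of Slc7a5 to Slc3a2 was -0.65, -0.97 and -1.60 in mice 4, 5 and 6, -2.96, -2.09 and -2.51 in libraries A, B and C, and -2.82, -2.49 and -3.14 in sham mice 1, 2 and 3. The light chain thus came nearer to the heavy chain in level at 1 day than in any other library.

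The 3 stress regulators differed. Sesn2, a sestrin that senses leucine and restrains mTORC1, averaged 3.37 ± 0.808 CPM at 1 day and 1.72 ± 0.0368 CPM in sham, a log2 fold of 0.98 (SE 0.21, adjusted p = 0.00222). Atf5, a transcription factor of the same stress response, was not called, at 7.27 ± 1.45 CPM at 1 day and 5.68 ± 0.563 CPM in sham (log2 fold 0.36, adjusted p = 0.079). Without mouse 6 the log2 fold of Atf5 was 0.50, with an adjusted p of 0.0062. Chac1, which breaks down glutathione, had 0.928, 0.834 and 1.21 CPM in mice 4, 5 and 6 at 1 day, 2.04, 0.997 and 0.899 CPM in libraries A, B and C at 14 days, and 1.34, 0.337 and 0.447 CPM in sham mice 1, 2 and 3. Sham mouse 1 was higher than mice 4, 5 and 6 and library A highest of all, so the groups overlapped (log2 fold 0.46, SE 0.50, adjusted p = 0.458 at 1 day). Without sham mouse 1 the 1-day log2 fold of Chac1 was 1.36, with an adjusted p of 0.0398.

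Among the synthetases, Vars, for valine, changed most. It had 37.3, 30.2 and 20.7 CPM in mice 4, 5 and 6 at 1 day, 8.86, 8.41 and 8.59 CPM in libraries A, B and C at 14 days, and 12.9, 11.8 and 9.33 CPM in sham mice 1, 2 and 3. All 3 mice at 1 day exceeded every other library, and the log2 fold was 1.37 (SE 0.19, adjusted p = 2.55e-04). Cars, Hars and Rars, for cysteine, histidine and arginine, came next, with log2 folds of 1.07, 1.06 and 1.06 (SE 0.15, 0.12 and 0.10). Rars averaged 32.5 ± 4.27 CPM at 1 day and 15.6 ± 0.957 CPM in sham, and Hars averaged 25.6 ± 4.82 CPM at 1 day and 12.3 ± 0.513 CPM in sham. About 8.0% of the exonic bases of Hars lie antisense to its neighbour Hars2, the gene of the mitochondrial enzyme.

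Another 7 synthetases had log2 folds between 0.79 and 0.96 at 1 day: Yars, Tars, Sars, Wars, Nars, Gars and Aars, for tyrosine, threonine, serine, tryptophan, asparagine, glycine and alanine. Of these Gars, which also supplies mitochondria, had 52.1, 47.9 and 35.8 CPM in mice 4, 5 and 6 at 1 day, 28.2, 30.3 and 32.4 CPM in libraries A, B and C at 14 days, and 27.1, 25.6 and 26.0 CPM in sham mice 1, 2 and 3. Every mouse at 1 day was above all libraries of the other groups, and its log2 fold was 0.79 (SE 0.13, adjusted p = 4.20e-04). Yars averaged 17.3 ± 1.72 CPM at 1 day and 8.90 ± 1.03 CPM in sham, a log2 fold of 0.96 (SE 0.12). The counts of Aars are uncertain where reads could be shared, because part of its sequence matches the annotated transcript of Exosc6, as are those of Iars, which has the processed pseudogene Gm4849.

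The log2 folds of Farsa, Lars, Iars, Mars, Eprs, Farsb and Kars at 1 day lay between 0.32 and 0.62 and were all called. Kars, for lysine in both compartments, averaged 39.8 ± 3.47 CPM at 1 day and 31.8 ± 1.74 CPM in sham (log2 fold 0.32, adjusted p = 0.0185), and leaving out sham mouse 1, sham mouse 3 or mouse 4 ended its call, with adjusted p of 0.0502, 0.0787 and 0.102. Qars and Dars, for glutamine and aspartate, were not called. Qars had 23.2, 21.3 and 19.3 CPM in mice 4, 5 and 6 and 19.5, 20.9 and 17.2 CPM in sham mice 1, 2 and 3, which overlap (log2 fold 0.15, adjusted p = 0.238). Dars had 30.3, 32.0 and 32.5 CPM in mice 4, 5 and 6 and 28.4, 30.2 and 32.3 CPM in sham mice 1, 2 and 3, which overlap as well (log2 fold 0.06, SE 0.08, adjusted p = 0.564).

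Farsa and Farsb code for the alpha and beta subunits of 1 enzyme, phenylalanyl-tRNA synthetase, and had log2 folds of 0.62 (SE 0.13) and 0.33 (SE 0.09) at 1 day. Per exonic length, the log2 ratio of Farsa to Farsb averaged -1.93 ± 0.16 at 1 day, -2.43 ± 0.15 at 14 days and -2.22 ± 0.06 in sham (SD, n = 3 each), with no overlap between the groups. About 9.5% of the exonic bases of Farsb lie antisense to Sgpp2. An exact permutation test (two-sided) of 7 such ratios in 14 comparisons with sham gave no p below 0.1, the smallest that 3 against 3 libraries allow, and an adjusted p of 0.14 at best.

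Of the 20 synthetases, 8 are known members of the multi-synthetase complex: Dars, Eprs, Iars, Kars, Lars, Mars, Qars and Rars. Of these 6 were called higher at 1 day, with a median log2 fold of 0.51, and of the 12 outside the complex all 12 were, with a median of 0.80. The split was not tested. Over all genes tested 29.4% were called higher at 1 day (6860 of 14124 with total counts), and the median log2 fold was 0.04. The complex has 3 scaffold proteins, of which Aimp2 (log2 fold 0.77) and Eef1e1 (1.12) rose at 1 day and Aimp1 was not called (0.22, adjusted p = 0.106). About 29.4% of the exonic bases of Aimp2 lie antisense to Eif2ak1.

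Ranked by mean CPM per kilobase of exon, Gars was the most abundant member in all 3 groups, with 14.5 CPM per kb at 1 day, 9.72 at 14 days and 8.42 in sham. Psat1 ranked 22 of 34 by this length-scaled level at 1 day, and 30 of 34 both at 14 days and in sham. In sham Asns, Mthfd2, Mthfd1l, Pycr1 and Phgdh held ranks 29 and 31 to 34, with at most 0.262 CPM per kb. The members with the highest folds at 1 day were thus among the scarcest in sham tissue. Fold and sham level share the sham libraries, so this link is partly built in. Psph and Chac1, at sham ranks 26 and 27, were not called at 1 day.

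The promoters of some members hold the letters of the C/EBP-ATF response element. The motif TGATGNAA was searched on both strands, with no other motif searched, in windows from 250 bases before to 50 bases after gene starts in RefSeq (GRCm38.p6). RefSeq windows were matched for 25 of 34 members; Cars, Hars, Lars, Mars, Nars, Rars, Vars, Wars and Slc7a5 are named only. Of the 25, 8 members (32.0%) held the motif, beside 1219 of 27025 genes with a window (4.51%) and 3.97% of all 32851 windows. They were 5 of 12 synthetases and 3 of 13 other members. The set was grouped under ATF4, known to regulate a number of its genes, so this higher share is no independent support. Their windows are shown so that the element can be seen in place, in lower case 5′ to 3′ along the gene's strand, with the motif or its reverse complement in capitals.
Asns (chr6:7693160-7693459, minus strand): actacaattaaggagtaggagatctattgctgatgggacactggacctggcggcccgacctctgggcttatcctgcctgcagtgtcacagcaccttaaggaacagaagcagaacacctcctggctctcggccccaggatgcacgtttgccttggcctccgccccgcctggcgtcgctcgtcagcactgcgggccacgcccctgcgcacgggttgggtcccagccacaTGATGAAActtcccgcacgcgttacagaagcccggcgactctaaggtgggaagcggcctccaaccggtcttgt
Pycr1 (chr11:120643699-120643998, minus strand): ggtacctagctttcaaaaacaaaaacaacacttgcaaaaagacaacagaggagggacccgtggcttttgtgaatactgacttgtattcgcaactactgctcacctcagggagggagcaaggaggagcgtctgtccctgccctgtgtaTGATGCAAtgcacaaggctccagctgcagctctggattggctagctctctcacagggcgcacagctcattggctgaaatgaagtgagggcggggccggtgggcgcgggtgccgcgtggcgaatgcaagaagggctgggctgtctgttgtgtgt
Yars (chr4:129189653-129189952, plus strand): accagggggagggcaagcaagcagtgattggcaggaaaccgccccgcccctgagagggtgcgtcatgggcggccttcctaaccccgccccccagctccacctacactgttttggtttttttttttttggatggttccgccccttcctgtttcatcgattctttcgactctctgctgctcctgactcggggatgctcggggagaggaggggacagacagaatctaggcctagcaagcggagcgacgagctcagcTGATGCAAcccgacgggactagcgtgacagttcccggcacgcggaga
Tars (chr15:11399609-11399908, minus strand): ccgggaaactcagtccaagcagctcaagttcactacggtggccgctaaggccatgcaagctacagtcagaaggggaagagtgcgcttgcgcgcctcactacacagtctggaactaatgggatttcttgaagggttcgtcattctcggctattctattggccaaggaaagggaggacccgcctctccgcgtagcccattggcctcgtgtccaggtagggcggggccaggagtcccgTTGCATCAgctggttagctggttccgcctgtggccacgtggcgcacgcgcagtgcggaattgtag
Gars (chr6:55037751-55038050, plus strand): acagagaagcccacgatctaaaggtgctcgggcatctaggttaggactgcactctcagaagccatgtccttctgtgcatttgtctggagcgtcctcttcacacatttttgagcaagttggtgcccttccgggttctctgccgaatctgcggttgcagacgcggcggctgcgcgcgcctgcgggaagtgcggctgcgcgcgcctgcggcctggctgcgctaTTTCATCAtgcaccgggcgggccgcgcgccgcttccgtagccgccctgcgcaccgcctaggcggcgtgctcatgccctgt
Aars (chr8:111033592-111033891, plus strand): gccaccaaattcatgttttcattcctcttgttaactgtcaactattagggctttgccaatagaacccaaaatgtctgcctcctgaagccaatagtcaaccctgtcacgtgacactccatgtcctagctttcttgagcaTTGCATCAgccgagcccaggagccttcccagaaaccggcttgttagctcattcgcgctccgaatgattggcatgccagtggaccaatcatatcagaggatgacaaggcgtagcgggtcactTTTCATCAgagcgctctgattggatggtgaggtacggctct
Iars (chr13:49681880-49682179, plus strand): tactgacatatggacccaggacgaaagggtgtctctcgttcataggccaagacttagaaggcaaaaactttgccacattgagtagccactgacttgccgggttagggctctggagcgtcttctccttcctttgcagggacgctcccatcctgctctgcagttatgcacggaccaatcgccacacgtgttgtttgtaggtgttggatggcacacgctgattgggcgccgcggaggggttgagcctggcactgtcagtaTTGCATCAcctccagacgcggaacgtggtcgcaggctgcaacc
Chac1 (chr2:119350992-119351291, plus strand): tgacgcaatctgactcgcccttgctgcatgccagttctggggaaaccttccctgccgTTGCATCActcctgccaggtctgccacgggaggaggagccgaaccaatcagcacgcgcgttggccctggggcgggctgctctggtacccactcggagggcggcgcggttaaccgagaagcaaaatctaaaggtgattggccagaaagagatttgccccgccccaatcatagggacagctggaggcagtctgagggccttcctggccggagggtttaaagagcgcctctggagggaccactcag
In Asns 15 bases lay between the motif, on the gene's strand, and the start, and in Pycr1 95 bases, on the same strand. In Tars, Gars and Chac1 it lay on the opposite strand, 7, 22 and 185 bases before the start. Aars held it on the opposite strand 104 bases before the start and again 9 bases into the gene, and in Yars and Iars it began 3 and 7 bases into the gene. Chac1 holds the motif and was not called at 1 day, while Psat1, Mthfd1l and Mthfd2, with the highest folds, have no match to these letters in their windows. All 27 windows start within 51 bases of a GENCODE transcript start of their gene, but other transcripts of some members begin further upstream. For Mthfd2, Psat1, Slc3a2, Aars and Qars this was by up to 8304, 22715, 9472, 698 and 299 bases, and those starts were not searched. The Aars window, which holds the motif, thus lies wholly within the annotated gene. A match is a string of letters and not a measured binding site, and no binding was measured here.

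**Figure D3:**
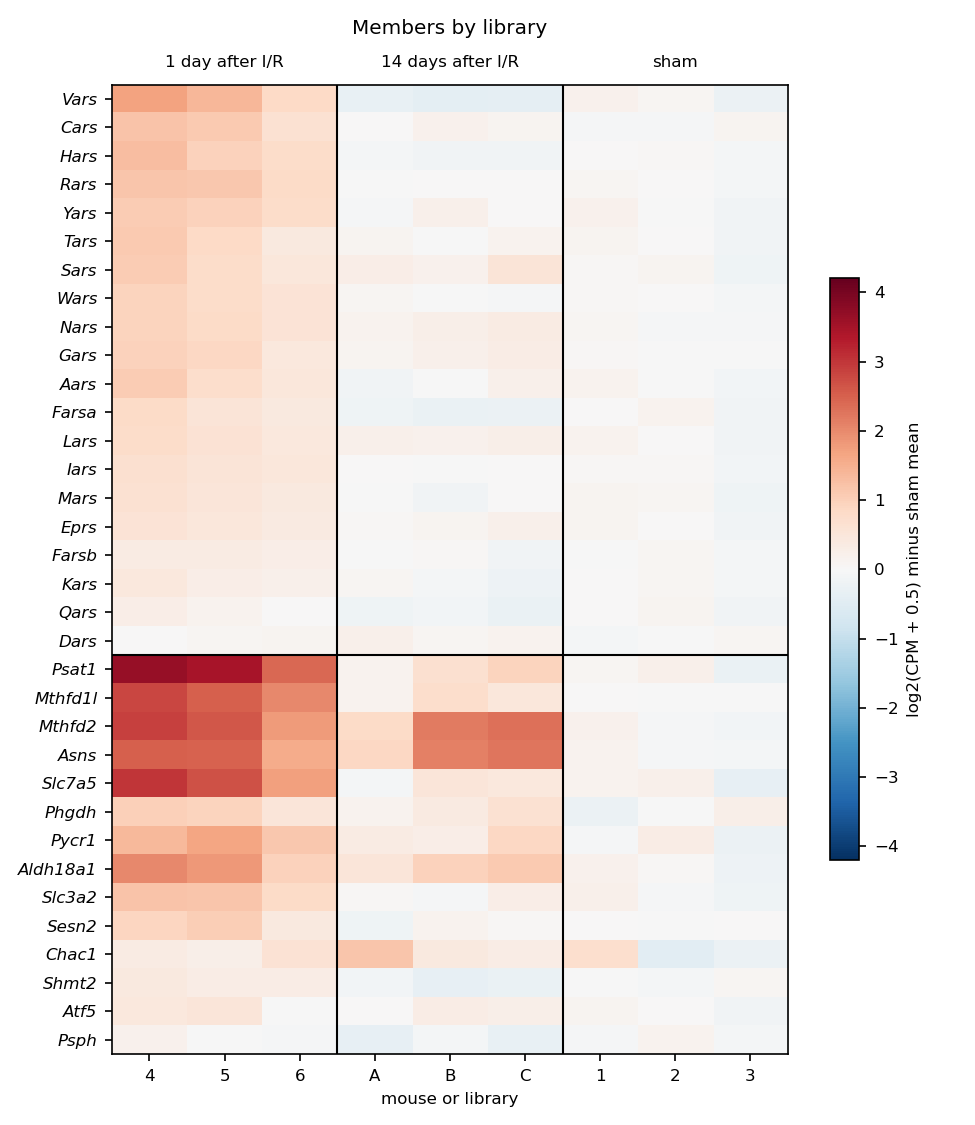
Level of each of the 34 members (rows, synthetases above the line, sorted by the 1-day fold) in each library (columns), as log2(CPM + 0.5) minus the sham mean, on a scale from -4.2 to 4.2. The columns of mice 4 and 5 are the strongest, mouse 6 is paler in most rows, and at 14 days colour remains mainly in Asns and Mthfd2 of libraries B and C.

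The 1-day mice did not carry the change equally. Mouse 6 was the lowest of the 3 in 32 of 34 members (94.1%), as it was in 83.4% of the 4153 genes called higher at 1 day and in 44.7% of all genes tested. The median log2 level of all members above the sham mean was 0.98, 0.82 and 0.50 in mice 4, 5 and 6. Along with this, mouse 6 had the lowest sum of cell cycle genes (41.3 CPM, against 98.3 and 113 CPM in mice 4 and 5). Without mouse 6, 18 synthetases and 12 other members were called higher at 1 day, as were 11 of the eIF2 and Atf4 genes, 7 other ATF4 targets and 11 other transporters in the lists described below, and 8 mitochondrial synthetases were called lower. Over all genes 4638 were then called higher and 3873 lower.

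Markers of other cells also changed at 1 day, where 29.4% of all genes were called higher and 24.8% lower. All 8 tested neutrophil markers of 10 were higher at 1 day, with summed levels of 53.1 to 148 CPM at 1 day and 1.80 to 5.18 CPM in sham (Lcn2 was the most abundant of them), and Ly6g, a defining marker, had 0 counts in every library. With sums this low in sham, such markers can pass the filter on low counts through the 1-day libraries alone. The count of neutrophil markers called is thus no independent support. Of 11 monocyte and macrophage markers 8 were higher, Lyz2 the most abundant, and the sum was 252 to 278 CPM at 1 day and 131 to 145 CPM in sham. The largest log2 fold among the 11 was 6.11, and a marker that low in sham could pass the filter through the 1-day libraries alone. Any call of that marker is thus no independent support. Of 9 fibroblast markers Pdgfra was higher and Dcn, Tcf21, Gsn and Dpt were lower, and their sum overlapped between 1 day (877 to 1060 CPM) and sham (944 to 1377 CPM). Of 8 endothelial markers Kdr, Emcn and Fabp4 were lower (with total counts 1 was higher and 1 lower). All 8 tested cell cycle genes of 9, Mki67 the most abundant, were higher, and 8 of 9 cardiomyocyte markers, led by Myh6, were lower. The part of these shifts in the members' change was not tested.

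Of the eIF2 and Atf4 genes upstream of the set, 10 of 16 were called higher at 1 day, where 29.4% of all genes were (6860 of 14124 with total counts). Atf4 itself had 42.8, 42.5 and 36.2 CPM in mice 4, 5 and 6 at 1 day, 20.2, 22.9 and 26.6 CPM in libraries A, B and C at 14 days, and 20.4, 22.1 and 20.6 CPM in sham mice 1, 2 and 3. The 1-day mice stood above all others, with a log2 fold of 0.95 (SE 0.11, adjusted p = 8.10e-05). The 16 genes, for eIF2, its kinases, exchange factor and phosphatase subunits and Atf4, had none lower and a median log2 fold of 0.38, and with total-count scaling all 16 were higher. Among the kinases Eif2ak3, which answers endoplasmic reticulum stress, had a log2 fold of 0.55 (adjusted p = 0.00609), and Eif2ak4, which senses uncharged tRNA, one of 0.31 (adjusted p = 0.0439) that 13 alternatives ended. Phosphorylation and protein were not measured.

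Other known ATF4 targets were called in both directions at 1 day. Of 18 tested of 20, 5 were higher (Slc7a11, Gdf15, Atf3, Eif4ebp1 and Pck2) and 3 lower (Vldlr, Gpt2 and Stc2), beside 29.4% and 24.8% of all genes. Their median log2 fold was 0.34. With total-count scaling 10 were called higher and 2 lower, beside 6860 and 1057 of all 14124 genes. Atf3 and Pck2 lost their calls under 2 and 7 alternatives. Slc7a11, the cystine importer, averaged 1.72 ± 0.0217 CPM at 1 day, with 158 counts over the 3 mice, and 0.0364 ± 0.0340 CPM in sham, with 3 counts over the 3 mice. It passed the filter on low counts only through the 1-day libraries, so its calls against those libraries are no independent support. Gdf15, a secreted stress cytokine, had a log2 fold of 2.76 (SE 0.46) and Eif4ebp1, a brake on cap-dependent translation, one of 0.95 (SE 0.11). Ddit3, the CHOP factor that partners ATF4, had 4.48, 3.26 and 4.35 CPM in mice 4, 5 and 6 and 3.22, 3.30 and 3.39 CPM in sham mice 1, 2 and 3, which overlap (log2 fold 0.29, adjusted p = 0.155). A second annotated entry of the same name, 105 exonic bases long, lies within its exons but is not in the count table, so no reads were assigned to it. Vldlr, the very low density lipoprotein receptor, fell (log2 fold -1.50), as did Gpt2, a mitochondrial alanine aminotransferase (-1.47).

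**Figure D4:**
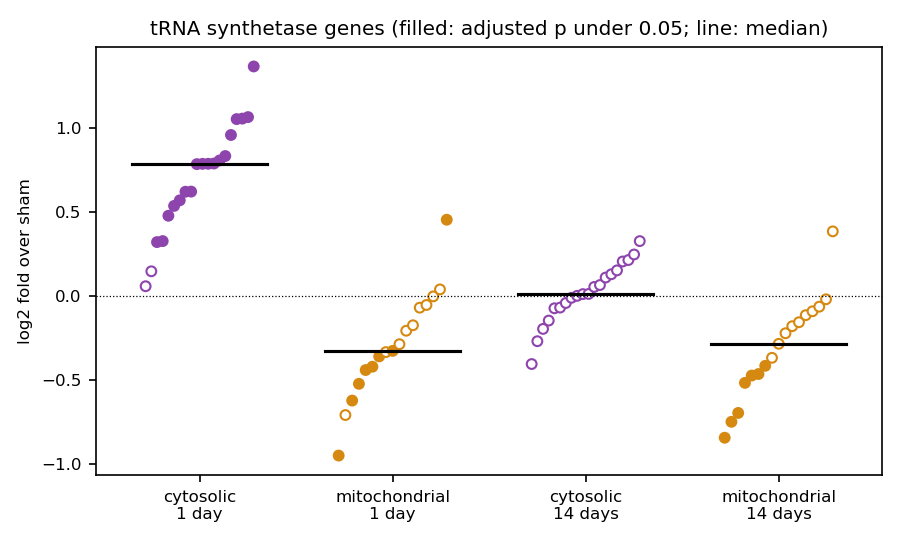
Log2 fold over sham (vertical axis) of 20 cytosolic and 17 mitochondrial tRNA synthetase genes at 1 day and at 14 days, 1 point per gene, filled for an adjusted p under 0.05, with a line at the median. The cytosolic and mitochondrial medians were 0.79 and -0.33 at 1 day (1.29 and 0.15 with total-count scaling) and 0.01 and -0.28 at 14 days.

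Among the synthetases that serve only mitochondria more genes were called lower than higher at 1 day, but not with total-count scaling. Of 17 genes, 1 was higher at 1 day, Ears2 (log2 fold 0.46, SE 0.15), and 7 were lower, among them Fars2, Cars2, Vars2, Nars2, Aars2 and Iars2, and the median log2 fold of the 17 was -0.33. Over all genes 29.4% were called higher and 24.8% lower, and 6860 and 1057 of 14124 with total counts. Iars2, the most abundant of the 7, had 42.3, 38.8 and 45.7 CPM in mice 4, 5 and 6 and 55.7, 51.6 and 51.7 CPM in sham mice 1, 2 and 3, without overlap, a log2 fold of -0.33 (adjusted p = 0.0188), while cytosolic Iars had one of 0.57. About 22.9% of the exonic bases of Iars2 lie antisense to Rab3gap2. With total counts 3 of the 17 were called higher and 1 lower, with a median of 0.15, and among those called lower the folds of Aars2, Iars2 and Nars2, for example, turned positive. Ears2 lost its call when any of sham mice 1 and 3 and mice 4 and 5 was left out. The cytosolic synthetases had a median of 1.29 by that scaling. The cardiomyocyte marker sum was also lower at 1 day (9779 to 19270 CPM) than in sham (29200 to 31670 CPM), and its part in these values was not tested.

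Genes of neighbouring pathways were called in both directions at 1 day, where 29.4% of all genes were called higher and 24.8% lower. With total counts 6860 of all 14124 genes were called higher and 1057 lower. Of 12 tested genes of 15 for serine, glycine and folate outside the set, 6 were higher at 1 day, among them Gcsh (0.34), Mthfd1 (0.52) and Tyms, thymidylate synthase (1.75), and Mtr, methionine synthase, was lower (-0.63), all as log2 folds. With total counts 7 of the 12 were higher and none lower. Of 13 genes for proline, glutamate and aspartate, 2 were higher, among them the proline-making Pycrl (0.73), and 6 were lower, the most abundant being Got1, an aspartate aminotransferase (-0.84). The median log2 fold of the 13 was -0.42, and 0.06 with total counts, by which 5 were called higher and 3 lower. Of 15 other amino acid transporters 12 were higher and none lower, with a median log2 fold of 0.63. Slc38a2, the most abundant and a glutamine and alanine carrier, averaged 187 ± 11.6 CPM at 1 day and 127 ± 3.03 CPM in sham (log2 fold 0.56), and the taurine carrier Slc6a6 had a log2 fold of 1.45.

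Relatives of single members could differ from them. Over all genes 29.4% were called higher at 1 day and 24.8% lower, and 6860 and 1057 of 14124 with total counts. Sesn1 averaged 19.3 ± 7.32 CPM at 1 day and 46.5 ± 5.04 CPM in sham (log2 fold -1.28), against a log2 fold of 0.98 for Sesn2. Sesn3 and Chac2 were also lower (-0.52 and -0.88), while Gclm, Gclc and Ggct of glutathione metabolism were higher (0.56, 0.35 and 0.55), Gclc losing its call under 12 alternatives. With total counts 4 of these 7 genes were higher and 1 lower. Of 9 accessory genes of tRNA charging, the 2 scaffolds rose and Tarsl2, Qrsl1, Gatb and Pstk fell, by log2 folds of -1.06, -0.91, -0.60 and -0.78. The median of the 9 was -0.25, and 0.23 with total counts, by which 4 were called higher and 1 lower. About 58.8% of the exonic bases of Pstk lie antisense to Ikzf5.

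At 14 days after I/R 2 genes of the set were called against sham, none of them a synthetase. The edgeR test called 0 of 20 synthetases and 2 of 14 other members, Asns and Mthfd2, both higher, where 8.75% of all genes were called higher and 5.64% lower (720 and 112 genes with total counts). The median log2 fold was 0.01 for the synthetases and 0.82 for the other members, beside 0.01 over all genes. At an unadjusted p under 0.05, 1 synthetase (higher) and 6 other members (5 higher and 1 lower) passed. The share of all genes at that unadjusted p was not counted, here or below. DESeq2 called 0 synthetases and 3 other members, beside 2225 of all 14124 genes. With limma-voom 0 of either were called, beside 1832 of all genes. Of the 34 members 9 lay wholly above sham and 5 wholly below it, where 21.0% and 18.4% of all genes did. The summed level of the 20 synthetases was 649 ± 80.3 CPM at 1 day, 436 ± 9.87 CPM at 14 days and 416 ± 25.3 CPM in sham (SD, n = 3 each).

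Asns and Mthfd2 stayed high in libraries B and C, at 4.78 and 5.27 CPM for Asns and 5.04 and 5.60 CPM for Mthfd2, with library A at 1.73 and 1.63 CPM. All sham mice were below 1 CPM in both genes, and library A was above them. The log2 fold of Asns was 2.43 (SE 0.48, adjusted p = 0.0119) and that of Mthfd2 2.46 (SE 0.54, adjusted p = 0.0181). Both calls were close to the threshold: limma-voom gave adjusted p of 0.0543 and 0.0768, and leaving out sham mouse 2 gave 0.0654 and 0.0824. The call of Mthfd2 was also lost without sham mouse 1, sham mouse 3, library B or library C (adjusted p from 0.0529 to 0.0638), whereas without library A both genes had log2 folds of 2.79 and 2.84 and adjusted p of 2.11e-04 and 4.56e-04.

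Library A was the lowest of the 14-day group in 10 of 14 other members and in 7 of 20 synthetases, beside 38.7% of all genes tested. It also had the lowest fibroblast marker sum (2327 CPM, against up to 4989 CPM), the lowest macrophage marker sum (202 CPM, against up to 382 CPM) and the highest cardiomyocyte sum (28320 CPM). In sham those sums were 944 to 1377 CPM, 131 to 145 CPM and 29200 to 31670 CPM. Of the fibroblast markers 7 of 9 were higher at 14 days than in sham, Col3a1 the most abundant, and of the macrophage markers 7 of 11, Lyz2 the most abundant. Over all genes 8.75% were called higher and 5.64% lower. No neutrophil, cardiomyocyte, endothelial or cell cycle marker was called at 14 days by edgeR, where 1, 1, 1 and 0 passed at an unadjusted p under 0.05; DESeq2 called 1 cardiomyocyte marker and limma-voom 0. The part of these cells in the level of Asns and Mthfd2 was not tested.

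The other members of the synthesis group were not called at 14 days. Aldh18a1 had 6.48, 9.06 and 9.94 CPM in libraries A, B and C and 4.94, 4.48 and 3.71 CPM in sham mice 1, 2 and 3, apart but not called (log2 fold 0.94, SE 0.28, adjusted p = 0.0507). It was called in 8 of 20 settings, DESeq2 among them. Mthfd1l (0.88, adjusted p = 0.14), Psat1 (0.78, 0.277), Pycr1 (0.87, 0.195), Phgdh (1.32, 0.155) and Chac1 (0.88, 0.249) had positive log2 folds that were not called. Within each library and per exonic length, the log2 ratio of Mthfd2 to Mthfd1l averaged 0.73 ± 0.19 at 1 day, 2.53 ± 0.61 at 14 days and 1.04 ± 0.22 in sham (SD, n = 3 each). The 14-day libraries were above all others, at 1.90, 2.56 and 3.12 in A, B and C, with an exact permutation p of 0.1 (adjusted 0.14).

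Slc7a5 and Slc3a2 were not called at 14 days, with log2 folds of 0.34 (SE 0.41) and 0.08 (SE 0.15). Sesn2 and Atf5 had log2 folds of 0.02 (SE 0.22) and 0.20 (SE 0.16), and Shmt2 and Psph of -0.25 (SE 0.10) and -0.33 (SE 0.19), none of them called. Among the synthetases the log2 fold ran from -0.40 for Vars (SE 0.20, adjusted p = 0.193) to 0.33 for Sars (SE 0.16, adjusted p = 0.179). Vars lay below sham in every library, with 8.86, 8.41 and 8.59 CPM in A, B and C, and was called lower when the 14-day and sham groups were fitted alone or mouse 6 was left out (adjusted p of 0.0347 and 0.0299).

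Around the set, Atf4 had a log2 fold of 0.14 at 14 days (SE 0.11, adjusted p = 0.427) and Ddit3 one of 0.21 (adjusted p = 0.42). By edgeR, none of the 16 eIF2 and Atf4 genes was called, with 4 higher and 2 lower at an unadjusted p under 0.05 and 0 by DESeq2 or limma-voom. Of the other ATF4 targets Nupr1 (1.88) and Cebpg (0.37) were higher and Gpt2 lower (-0.57). Slc7a11 was also called higher, at 0.222 ± 0.0583 CPM at 14 days (19 counts) and 0.0364 ± 0.0340 CPM in sham (3 counts). Of the transporters Slc7a2 (1.76), Slc1a5 (0.80) and Slc7a8 (0.71) were higher. Prodh, which breaks down proline, was lower (-0.81), as were Mtr (-0.53) and Qrsl1 (-0.48). Of the mitochondrial synthetases 7 were lower, Cars2, Aars2, Ears2, Mars2, Sars2, Vars2 and Yars2, with a median log2 fold of -0.28 over the 17, and with total-count scaling 0 were called and the median was -0.195. Over all genes 8.75% were called higher and 5.64% lower, and 720 and 112 of 14124 with total counts. Those in parentheses are log2 folds over sham from edgeR, called at an adjusted p under 0.05. The test against a 2-fold change left aside, Slc7a2 kept its call under every alternative, Nupr1 and Aars2 lost it under 1 and Slc1a5 under 2, and the other genes called here lost it under 5 to 12. None of the 7 sestrin and glutathione genes was called, and 0 passed at an unadjusted p under 0.05, by DESeq2 or by limma-voom.

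Set directly against 1 day, the 14-day libraries were lower in 19 of 20 synthetases and 8 of 14 other members and higher in none, where 26.8% of all genes were called lower and 25.1% higher. The median log2 fold of 14 days over 1 day was -0.59 for the synthetases and -0.89 for the other members, beside 0.00 over all genes. With total counts the all-gene median was -0.38, and 1066 genes were called higher and 5469 lower. In 26 of 34 members the libraries of the 14-day mice all lay below mice 4, 5 and 6, where 29.0% of all genes had groups apart in that direction. The members not called in this comparison were Dars, Asns, Mthfd2, Phgdh, Psph, Atf5 and Chac1.

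Psat1 had the largest decrease between the times, with a log2 fold of 14 days over 1 day of -2.97 (SE 0.35, adjusted p = 1.43e-04), followed by Mthfd1l at -2.54 (SE 0.27) and Slc7a5 at -2.53 (SE 0.34). For Asns and Mthfd2 the same fold was -0.43 (SE 0.37, adjusted p = 0.349) and -0.67 (SE 0.41, adjusted p = 0.192), with overlapping groups. Leaving out 1 library at a time moved these folds between -0.68 and -0.08 for Asns and between -0.93 and -0.29 for Mthfd2, and neither was called in any of 20 settings. Of the synthetases Vars fell most (-1.78, SE 0.19), then Hars (-1.21) and Rars (-1.05). Atf4 was lower by a log2 fold of -0.81 (adjusted p = 1.83e-04), and 9 of the 16 eIF2 and Atf4 genes were lower and none higher. Over all genes 26.8% were called lower and 25.1% higher.

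Genes of the neighbouring lists also differed between the times. Of the other ATF4 targets Vldlr, Gpt2, Stc2 and Nupr1 were higher at 14 days than at 1 day, with log2 folds of 1.31, 0.90, 0.76 and 1.46, and Slc7a11, Atf3, Gdf15, Cebpb and Eif4ebp1 were lower (-2.95, -1.81, -1.77, -1.29 and -0.81). Of the accessory genes Tarsl2, Qrsl1, Gatb and Pstk were higher (0.71, 0.43, 0.40 and 0.67) and the scaffolds Aimp2 and Eef1e1 lower (-0.98 and -1.33). Among the mitochondrial synthetases Fars2, for example, was higher (0.58) and Ears2, Sars2 and Aars2 lower (-0.97, -0.67 and -0.34).

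Of the serine and folate genes Mthfd2l was higher at 14 days than at 1 day (0.64) and Fpgs, Tyms, Mthfd1 and Gcsh were among those lower (-1.22, -0.93, -0.74 and -0.40). Pycrl of proline synthesis was lower (-0.67), while Aldh4a1, which oxidises proline's product, Asrgl1, Got1 and Asnsd1 were higher (0.91, 0.80, 0.46 and 0.37). Sesn1, Sesn3 and Chac2 were higher (1.42, 0.59 and 0.53) and Ggct, Gclm and Gss lower (-0.67, -0.43 and -0.38). Of the other transporters 7 were lower, Slc38a2 the most abundant (-0.53), and none higher, where 26.8% of all genes were called lower and 25.1% higher. These too are log2 folds of 14 days over 1 day, and the higher ones depended on scaling: with total counts the counts called higher and lower were 3 and 5 of 18 ATF4 targets, 0 and 3 of 9 accessory genes, 0 and 8 of 17 mitochondrial synthetases, 0 and 6 of 12 serine and folate genes, 1 and 4 of 13 proline, glutamate and aspartate genes, and 1 and 4 of 7 sestrin and glutathione genes. By that scaling 1066 of all 14124 genes were called higher and 5469 lower.

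Cell markers shifted between the times as well. The 8 neutrophil markers tested were all lower at 14 days than at 1 day, Lcn2 the most abundant, as were the 8 cell cycle genes, Mki67 the most abundant. The neutrophil markers could pass the filter through the 1-day libraries alone, so their direction here is no independent support. Over all genes 26.8% were called lower and 25.1% higher. Of the macrophage markers Csf1r, Adgre1 and Ms4a7 were higher (0.43, 0.62 and 1.48) and Ccr2, Cd68, Chil3 and Fcgr1 lower (-1.50, -0.85, -7.68 and -1.23). Chil3 could likewise pass the filter through the 1-day libraries alone, so its call is no independent support. Fibroblast markers were higher in 7 of 9, Col3a1 the most abundant, cardiomyocyte markers in 6 of 9, Myh6 the most abundant, and of the endothelial markers Kdr, Fabp4 and Emcn were higher (1.02, 0.54 and 0.50). Their part in the members' decrease was not tested.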

How the data were processed

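Total RNA of the left ventricle was sequenced with strand-marking libraries after ribosomal RNA removal, per the labels' protocols. The deposited values are raw gene counts, made by the authors from reads aligned with STAR 2.7.1a to GRCm38 (mm10), per the submitters' processing notes. The counting program, its annotation and its use of strand and multiply mapped reads were not stated in the sources used, so reads of overlapping or near-identical genes may be shared. Of 38293 Ensembl IDs 36429 were named through GENCODE M21.

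All 9 libraries entered 1 edgeR 4.0.16 quasi-likelihood fit (R 4.3.3, TMM scaling, the filterByExpr filter, Benjamini-Hochberg adjustment over all genes tested, threshold 0.05), with no covariate. CPM is the count per 1000000 of the TMM-scaled library, and the per-kilobase level divides it by the union of exons. Each group of 3 libraries is labelled as 3 mice, and replicates differed by more than sampling noise (chi-square per degree of freedom 7.28 to 97.5). No batch is given in the labels. Alternatives were run with limma 3.58.1 and DESeq2 1.42.0, 10 besides leaving out each library and 19 in all. The scripts were tested on simulated counts. Copies at 95% identity or more over at least 300 bases were searched with blastn 2.17.0, figures were drawn with matplotlib 3.10.9, and promoters come from RefSeq (GRCm38.p6), where 23 of 27 member windows end within a GENCODE transcript of their gene.

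The members and lists were chosen with earlier results of these data known. All members are named, and of other lists the most abundant called gene in each direction, every called gene where 5 or fewer were called, Atf4 and Ddit3. The kinases Eif2ak3 and Eif2ak4 and the further genes named were chosen after their values were seen. Some called genes that this rule would name are not reported here, and the counts and medians of their lists include them.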

Additional observations from a re-analysis of the deposited data

Results flagged for a closer look

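The effect of injury over sham differed between the times in 27 of 34 members, by the edgeR test of 14 days against 1 day, in which the sham mice cancel. All 27 were lower at 14 days, by log2 folds from -2.97 to -0.34, where 26.8% of all genes were called lower and 25.1% higher. Those other than synthetases were Psat1 (-2.97), Mthfd1l (-2.54), Slc7a5 (-2.53), Pycr1 (-1.31), Slc3a2 (-1.02), Sesn2 (-0.96), Aldh18a1 (-0.83) and Shmt2 (-0.62). Synthetases beyond -0.75 were Vars (-1.775), Hars (-1.205), Rars (-1.05), Cars (-0.96), Yars (-0.91), Farsa (-0.89), Wars (-0.78), Aars (-0.78) and Tars (-0.77). The others were Mars (-0.61), Gars (-0.58), Iars (-0.58), Nars (-0.54), Sars (-0.48), Lars (-0.41), Kars (-0.39), Farsb (-0.37), Eprs (-0.35) and Qars (-0.34). Mouse 6 was the highest of the 1-day mice in cardiomyocyte markers and the lowest in 32 of 34 members, and the part of tissue composition in the difference was not tested.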

How the results depend on the processing

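No paired analysis was possible because the groups share no replicate numbers. The direction of all 29 calls at 1 day and all 27 between the times held under every alternative run for it, 19 for each call but 18 for Phgdh, which the filter at 1 CPM removed. Tested against a 2-fold change, 810 genes, 0 synthetases and 7 other members were called at 1 day, 39 genes and 0 other members at 14 days, and 626 genes, 1 synthetase and 3 other members between the times. Total-count scaling left 832 genes called at 14 days. Both limma-voom and dropping the filter on low counts left 0 other members called at 14 days, and fitting only the 14-day and sham groups called 1 synthetase, Vars. Leaving out 1 library gave from 478 (without sham mouse 2) to 3221 (without mouse 6) genes at 14 days, with 912, 1025, 722 and 775 without sham mouse 1, sham mouse 3, library B and library C. It gave from 0 to 2 synthetases at 14 days (Nars higher and Vars lower without mouse 6) and from 0 (without sham mouse 2) to 3 other members.

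Uncalled members near 0 changed sign, and the cause was not tested. At 14 days these were, with total counts, Farsb (0.0496), Iars (0.0848), Kars (0.0140) and Mars (0.0263), and with DESeq2 size factors Aars (-0.0112), Rars (-0.0219), Wars (-0.0106) and Sesn2 (-0.0067). With TMM factors from other genes they were Aars (-0.0031), Rars (-0.0133) and Wars (-0.0019), with DESeq2 Aars (-0.0105), Rars (-0.0229), Wars (-0.0114) and Sesn2 (-0.0069), and with limma-voom and with 2 groups Rars (-0.00093 and -0.0026). Between the times Dars was -0.285 with total counts. Leaving out 1 library, the 14-day log2 fold ran from -0.102 to 0.0848 for Aars, -0.0953 to 0.0086 for Farsb, -0.0628 to 0.0171 for Iars, -0.0425 to 0.0430 for Rars and -0.00019 to 0.131 for Tars. It ran from -0.0289 to 0.0409 for Wars, -0.0350 to 0.147 for Yars, -0.0369 to 0.196 for Slc3a2 and -0.0872 to 0.131 for Sesn2. The 1-day fold of Psph ran from -0.0690 to 0.151, and the fold of Chac1 between the times from -0.0387 to 0.638.

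With total counts Atf5, Dars and Qars were called higher at 1 day (adjusted p of 0.00612, 0.00908 and 0.0104). Between the times the call of Sars was lost without mouse 4, library A or library B (adjusted p of 0.111, 0.0561 and 0.0859), that of Eprs without mouse 4 or library B (0.0583 and 0.0563), that of Qars without mouse 4 or library C (0.0674 and 0.0576), and that of Aldh18a1 without mouse 4, mouse 5 or library A (0.0870, 0.0642 and 0.0734) or with no filter on low counts (0.0867). Phgdh was called lower without mouse 6, without library C or with total counts (0.0285, 0.0495 and 0.0205), as was Psph with total counts (0.0257). The low counts of Phgdh, Pycr1 and Chac1 limit what can be detected for them.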
